A study of Mus musculus with 12 samples.

Results

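The genes described here encode the machinery by which a nerve terminal releases transmitter. They are 37 genes chosen by function, and their H2A.Z promoter peaks are the rows of 4 deposited peak lists in which the authors assigned a peak to one of these genes and placed its middle within 1000 bp of a transcription start site. Of the 37 genes, all of which are among 21900 protein-coding genes of the RefSeq table, 31 had such a peak in at least 1 list, with 81 peaks in all. H2A.Z, a histone H2A variant, sits in nucleosomes flanking start sites. It was profiled by chromatin immunoprecipitation and sequencing in the nucleus accumbens, a ventral striatal part of the mouse reward circuit.

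The 12 samples form 4 conditions of 3 samples, which the titles give as the codes SC, CS, CC and SS. The letters are read here as the earlier and later treatments. These are saline then cocaine (SC, the list labelled acute), cocaine then saline (CS, withdrawal), cocaine then cocaine (CC, challenge) and saline then saline (SS). The sources used here give no strain, age, sex, cocaine dose, interval or batch. The tissue is labelled only as nucleus accumbens, so the share of cells that carry H2A.Z at a promoter and the amount per cell cannot be told apart. Each condition is represented by 1 peak list with no value per sample, so a replicate error cannot be given and no difference between conditions was tested. Intervals are 95% exact binomial (Clopper-Pearson) and cover the counting of genes only.

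Transmitter release begins when vesicles, coated with synapsins and carrying synaptophysin and SV2 proteins, dock at the active zone, a protein meshwork built from RIM, Munc13 (Unc13 genes), ELKS (Erc genes), Bassoon and Piccolo. The SNARE proteins syntaxin, SNAP25 and synaptobrevin (Vamp genes) pull the vesicle and plasma membranes together. Complexins clamp and assist the SNARE proteins, and calcium sensors, among them some synaptotagmins and Doc2b, trigger fusion. Medium spiny neurons, the projection neurons of the striatum, release GABA through this machinery, and the accumbens also receives glutamatergic and dopaminergic terminals whose nuclei lie elsewhere.

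Promoters of 6 of the genes are shown because they span the range of outcomes. They are the 250 bases before the RefSeq start site, 5′ to 3′ on the gene's strand, from RefSeq on GRCm38.p6, whose chromosomes UCSC calls mm10. CpG dinucleotides, in which H2A.Z-bearing promoters are often rich, are in capitals. Stx1a had a promoter peak in every list, Unc13b had the strongest one named for a member in SC and in SS and one in CC, Cplx1 had one in CS, Erc1 had strong ones in SC and SS and none in CS or CC, and Rab3a and Syp had none in any list. The sequences lie at chr5:135023232-135023481 (plus strand), chr4:43058703-43058952 (plus strand), chr5:108550028-108550277 (minus strand), chr6:119848151-119848400 (minus strand), chr8:70754453-70754702 (plus strand) and chrX:7638330-7638579 (plus strand).
Stx1a: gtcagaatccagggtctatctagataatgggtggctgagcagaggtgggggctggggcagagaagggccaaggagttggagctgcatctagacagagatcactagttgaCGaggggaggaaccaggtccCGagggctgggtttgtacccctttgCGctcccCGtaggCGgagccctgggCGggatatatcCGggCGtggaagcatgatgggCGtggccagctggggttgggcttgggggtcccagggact
Unc13b: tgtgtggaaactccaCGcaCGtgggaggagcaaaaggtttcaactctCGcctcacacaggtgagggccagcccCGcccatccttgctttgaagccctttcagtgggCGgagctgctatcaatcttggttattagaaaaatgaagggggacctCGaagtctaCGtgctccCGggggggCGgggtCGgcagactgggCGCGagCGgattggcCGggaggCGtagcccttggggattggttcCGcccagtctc
Cplx1: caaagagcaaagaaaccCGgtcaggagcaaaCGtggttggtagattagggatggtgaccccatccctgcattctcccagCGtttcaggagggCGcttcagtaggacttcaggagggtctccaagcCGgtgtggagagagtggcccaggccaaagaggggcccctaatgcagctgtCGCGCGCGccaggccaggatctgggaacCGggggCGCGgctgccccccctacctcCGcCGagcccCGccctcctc
Erc1: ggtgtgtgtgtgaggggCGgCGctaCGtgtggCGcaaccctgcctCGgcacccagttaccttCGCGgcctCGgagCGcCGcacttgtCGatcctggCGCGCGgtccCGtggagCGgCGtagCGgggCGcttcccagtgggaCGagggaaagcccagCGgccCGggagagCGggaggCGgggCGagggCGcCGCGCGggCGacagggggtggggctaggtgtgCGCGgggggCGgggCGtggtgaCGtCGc
Rab3a: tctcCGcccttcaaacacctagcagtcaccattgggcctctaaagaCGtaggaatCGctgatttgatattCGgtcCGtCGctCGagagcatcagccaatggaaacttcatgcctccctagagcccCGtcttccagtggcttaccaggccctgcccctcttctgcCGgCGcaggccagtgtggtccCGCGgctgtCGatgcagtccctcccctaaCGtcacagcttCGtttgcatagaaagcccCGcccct
Syp: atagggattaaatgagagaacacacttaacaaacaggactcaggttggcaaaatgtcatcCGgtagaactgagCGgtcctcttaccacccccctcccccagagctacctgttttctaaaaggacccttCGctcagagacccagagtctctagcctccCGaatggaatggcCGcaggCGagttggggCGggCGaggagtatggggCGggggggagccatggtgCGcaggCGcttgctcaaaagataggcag
These stretches hold 9 CpGs for Stx1a, 16 for Unc13b, 15 for Cplx1, 36 for Erc1, 16 for Rab3a and 11 for Syp. Within these 250 bases both promoters without a peak hold more CpGs than that of Stx1a. The order depends on the bases counted. In the windows of 300 bases described below, which run past the start site, Stx1a holds 19 CpGs and Syp 18. Rab3a holds 18 in the window that takes in the printed bases and 22 in its other window.

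The lists differ in kind, which bears on every count. SC held 23170 peaks, CS 6417, CC 4827 and SS 24655, with a median width of 727 bp in SC, 110 bp in CS, 107 bp in CC and 734 bp in SS. The highest q-value listed was 0.000572 in SC, 0.051 in CS, 0.0625 in CC and 0.000544 in SS. Fold enrichment is the authors' ratio over background and is used only within a list. Medium spiny neuron markers had promoter peaks at 10 of 15 genes in SC, none in CS, 1 (Gnal) in CC and 13 in SS. Striatal interneuron markers had them at 3 of 8 genes in SC, 0 in CS and CC and 5 in SS. For excitatory projection neuron markers it was 2 of 5 genes in SC, 0 in CS, 1 in CC and 2 in SS. Of 5 markers each, astrocytes had 1 in SC, 0 in CS and CC and 2 in SS, oligodendrocytes 2 in SC, 0 in CS, 1 in CC and 2 in SS, and endothelium 3 in SC, 2 in CS, 0 in CC and 4 in SS. Microglial markers had none in any list. Among all protein-coding genes, 50.9% had a promoter peak in SC, 17.2% in CS, 13.5% in CC and 53.4% in SS. A promoter peak of H2A.Z is not a measure of expression, so these counts do not give the cell types present.

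In the lists as deposited, most presynaptic genes had H2A.Z promoter peaks without a cocaine history and few had one with it. A promoter peak was listed for 30 of the 37 genes in SC (81.1%, interval 64.8 to 92%), 5 in CS (13.5%, 4.54 to 28.8%), 4 in CC (10.8%, 3.03 to 25.4%) and 29 in SS (78.4%, 61.8 to 90.2%). Over all protein-coding genes the share was 50.9% in SC, 17.2% in CS, 13.5% in CC and 53.4% in SS. Lists of equal length were made of the 4827 peaks of highest fold. Of the 37 genes, 10 then had a promoter peak in SC, 3 in CS, 4 in CC and 12 in SS. Over all protein-coding genes the share was 18.5% in SC, 13.5% in CS, 13.5% in CC and 18.7% in SS. No list then held a majority of the 37, and no interval was computed for these counts. With all peaks, the intervals of the presynaptic genes lay above the share of all genes in SC and SS and took it in for CS and CC. Of the 29 genes with a peak in SS, 28 also had one in SC (96.6%, 82.2 to 99.9%, against 90.1% of all SS promoter genes), 5 in CS (17.2%, 5.85 to 35.8%, against 30.1%) and 4 in CC (13.8%, 3.89 to 31.7%, against 23.9%). The intervals again took in the share of all genes in CS and CC, and in SC. A peak in SC and SS and none in CS or CC was found at 20 of the 29 genes (69%, 49.2 to 84.7%), against 50.8% of all SS promoter genes. A peak in CS, CC or both was found at 8 of the 29 (27.6%, 12.7 to 47.2%), against 41.1%.

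**Figure D1:**
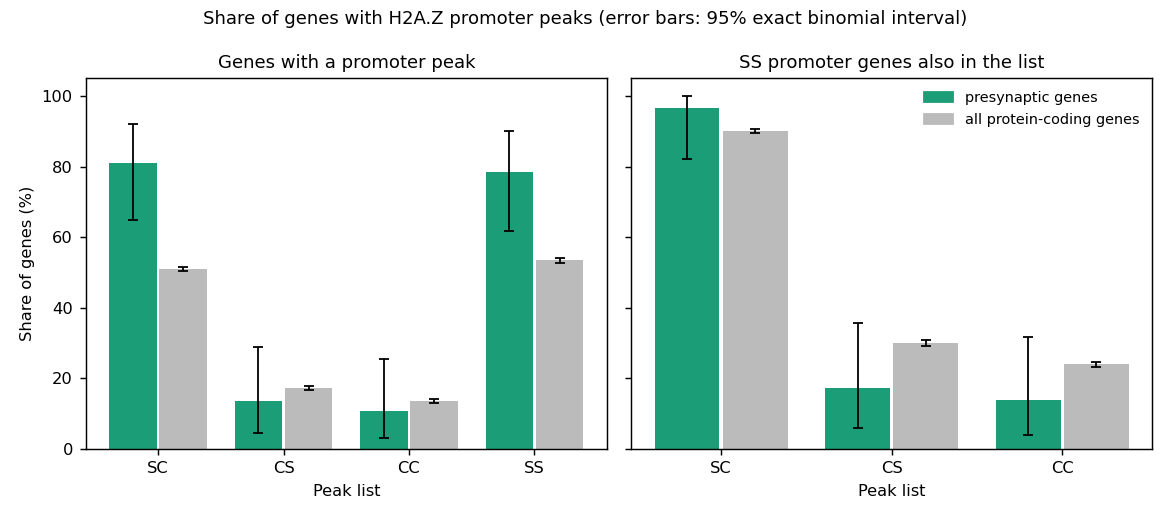
Share of genes with an H2A.Z promoter peak in each list (left, % of 37 presynaptic or 21900 protein-coding genes) and share of SS promoter genes that also had one in SC, CS or CC (right, % of 29 or 11699 genes). Error bars are 95% exact binomial intervals; presynaptic genes stand at 81.1% in SC and 78.4% in SS but at 13.5% in CS and 10.8% in CC.

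**Figure D2:**
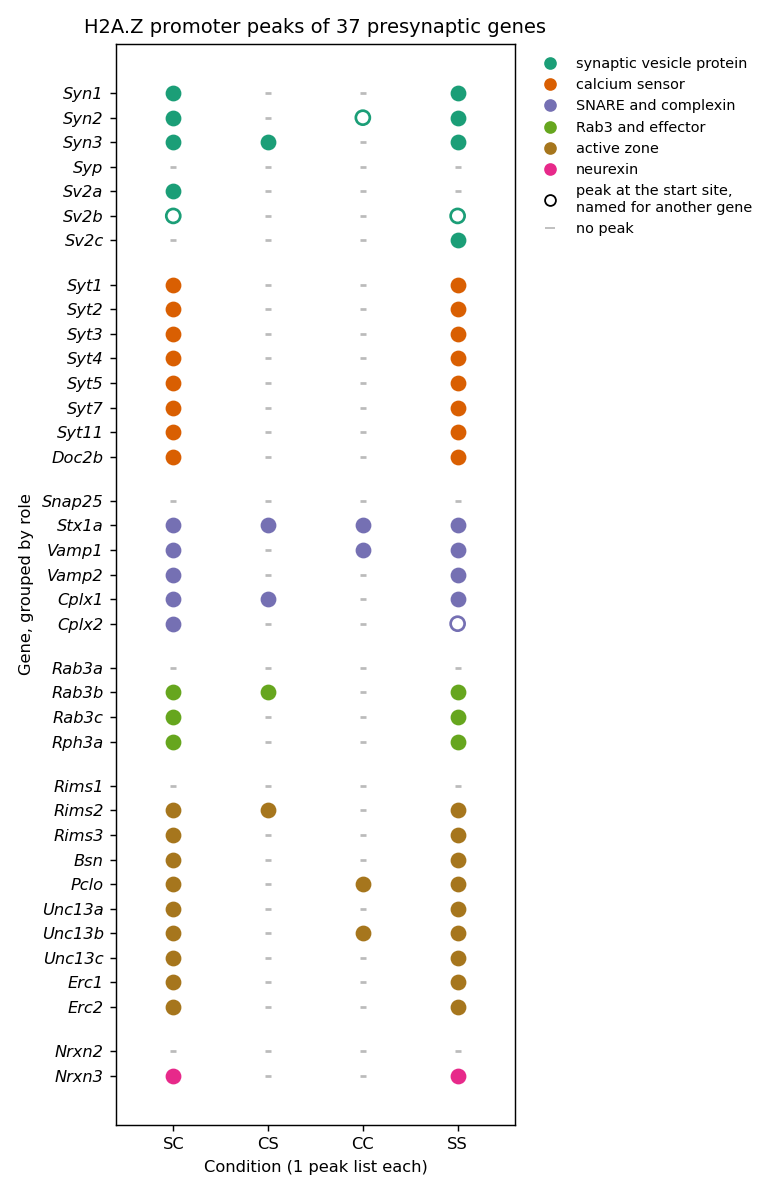
Promoter peaks of the 37 genes (rows, coloured by role) in the 4 lists (columns). Filled circles mark a peak within 1000 bp of a start site named for the gene, open circles a peak on the gene's promoter that carries another gene's name, and dashes no peak; filled circles number 30 in SC, 5 in CS, 4 in CC and 29 in SS.

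The 7 genes of the vesicle itself are the synapsin and SV2 genes and Syp. A promoter peak was listed for 4 of them in SC, 1 in CS, 0 in CC and 4 in SS. Over all protein-coding genes the shares were 50.9% in SC, 17.2% in CS, 13.5% in CC and 53.4% in SS. With 7 genes, no trait of vesicle genes can be read from these counts. All 3 synapsin genes, whose products tether vesicles to each other and to actin, had promoter peaks in SC and in SS. Syn2 was among the strongest, with a fold enrichment of 14.7 in SC (percentile 97 among promoter genes of that list) and 11.6 in SS (percentile 95.5). Syn3 had folds of 4.43 in SC, 4.52 in CS and 4.01 in SS, and its CS peak was 103 bp wide. Syn1, on chromosome X, had a fold of 6.62 in SC, at percentile 47.5 of that list, and 3.19 in SS, at percentile 3.05, with peaks 676 bp wide in SC and 402 bp in SS. Chromosome X held 2.88% of the promoter genes in SC and 2.3% in SS, and the median fold on X was 4.95 in SC and 4.16 in SS; the part of the chromosome in the values of Syn1 was not tested. In CS and CC, 7 of 3759 and 3 of 2959 promoter genes lay on X.

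The SV2 genes encode vesicle glycoproteins that bind synaptotagmin. Each was listed differently. Sv2a had a promoter peak in SC alone (fold 4.5, 1120 bp) and Sv2c in SS alone (3.19, 385 bp). Sv2b had none under its own name, but a peak on its RefSeq promoter was assigned to 1500012K07Rik in SC (3.76, 689 bp) and SS (4.38, 1393 bp). It also had a peak in its gene body in SC (4.46) and SS (4.65), 101.6 kb from the start site in both. Syp, the gene of synaptophysin and a standard marker of synaptic vesicles, had no peak of any name within 1000 bp of its gene in any list, nor did Snap25, Rab3a, Rims1 and Nrxn2.

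The genes grouped here as calcium sensors are 7 synaptotagmin genes, placed there by family and not by calcium binding, and Doc2b. All 8 had promoter peaks in SC and SS, where 50.9% and 53.4% of all protein-coding genes did. None of the 8 had one in CS or CC, where 17.2% and 13.5% of all protein-coding genes did. Of all SS promoter genes, 30.1% had one in CS and 23.9% in CC. The difference from these shares was not tested, and 8 genes are few. Syt7, a slow high-affinity sensor, had folds of 9.75 in SC and 9.63 in SS, with peaks 1143 bp wide in SC and 1141 bp in SS. Syt3 had 10.4 in SC and 8.09 in SS, and Doc2b 7.51 in SC and 7.65 in SS. Syt11 (5.89 in SC, 4.84 in SS), Syt5 (4.27 in SC, 4.33 in SS) and Syt4 (3.64 in SC, 3.15 in SS) were weaker in both lists. Syt1, a fast sensor of synchronous release, had a peak of 326 bp in SC (3.63) and of 1497 bp in SS (4.49).

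The values of Syt2, the other fast sensor, depended on the gene to which a peak was assigned. Under its own name its strongest promoter peak had a fold of 2.97 in SC and 11.5 in SS. The SC value belongs to a downstream start site, where SS also had a peak (3.29). At the upstream start site SC had a peak of fold 15.9, chr1:134646184-134646939, that was assigned to the long noncoding RNA gene Gm26783 and overlapped the SS peak of Syt2 at chr1:134646240-134646995. Both peaks were 755 bp wide. Cplx2 was a different case. It was named in SC only, for a peak of 3.26 (chr13:54371515-54371830) that no SS peak of any name overlapped. Peaks assigned to the noncoding gene AC164441.1 stood elsewhere, in SC (10.8, chr13:54302514-54303627) and in SS (9.58, chr13:54302560-54303704). These overlapped only the downstream end of the RefSeq promoter window of Cplx2 (chr13:54302306-54302605, plus strand).

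SNARE genes included the only member with a promoter peak in every list. This was Stx1a, which encodes syntaxin 1A of the plasma membrane, with folds of 5.07 in SC, 4.02 in CS, 4.25 in CC and 4.04 in SS. Its SC, CS, CC and SS peaks were 931, 73, 157 and 1106 bp wide. The CS peak (chr5:135023885-135023958) and the CC peak (chr5:135023569-135023726) did not overlap and lay 159 bp apart, both inside the SS peak (chr5:135023084-135024190). Over all SS promoter genes, 12.4% had a promoter peak in all 4 lists, against 1 of 29 here (3.45%, 0.0873 to 17.8%).

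Vamp1 and Vamp2 encode the vesicle SNARE synaptobrevin in its 2 forms. Vamp2 had folds of 10.2 in SC and 9.84 in SS and no peak in CS or CC. Vamp1 had peaks at 2 start sites in SC (5.76 and 4.39) and in SS (5.33 and 5.23), and its CC peak (4.96, 67 bp) lay at the downstream one. Cplx1, which encodes complexin 1, had folds of 6.85 in SC, 4.02 in CS and 5.96 in SS, and no CC peak. Its CS peak was 69 bp wide and its SS peak 1246 bp.

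Among the Rab3 genes, whose small GTPases mark vesicles for RIM, Rab3b had promoter peaks in SC (6.01), CS (4.35) and SS (6.32). In CS it had 2 short peaks, of 128 and 76 bp, with their middles 18 and 328 bp downstream of the start site. Rab3c had 3.55 in SC and 3.95 in SS, and the Rab3 effector gene Rph3a, for rabphilin, 3.09 in SC and 4.06 in SS. These 2 genes had no peak in CS or CC.

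Active zone genes included the strongest peak named for a member. Unc13b, a Munc13 priming factor, led the members with 15.8 in SC (percentile 99.1) and 11.9 in SS (percentile 96.8), at chr4:43058821-43059577 in SC and chr4:43058789-43059697 in SS. Erc2 followed in SC with 15.1 and had 9.84 in SS, and Rims3 had 14.1 in SC and 11.2 in SS. Pclo, the gene of Piccolo, had 13 in SC and 10.7 in SS, Bsn, the gene of Bassoon, 11.6 in SC and 9.32 in SS, and Erc1 11.6 in SC and 9.33 in SS. The other Munc13 genes were lower: Unc13a had 8.8 in SC and 7.43 in SS, and Unc13c 4.26 in SC and 3.96 in SS. Rims2 had 5.96 in SC, 4.52 in CS and 6.3 in SS, over the widest peaks of the set (2071 bp in SC and 2081 bp in SS, 69 bp in CS).

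Of these 9 marked active zone genes, 1 (Rims2) had a promoter peak in CS and 2 (Pclo at 3.71 and Unc13b at 4.78) had one in CC. Of all SS promoter genes, 30.1% had one in CS and 23.9% in CC. With 9 genes, no trait of active zone genes can be read from these counts. Erc2 had a CS peak outside the promoter limit, 2083 bp downstream of one of its start sites (5.35, 94 bp), which was the nearest peak of a member beyond 1000 bp in any list. The member peaks nearest inside the limit were 1 of Bsn in SS (932 bp upstream) and 1 of Syt11 in SC (847 bp downstream). Nrxn3, a neurexin gene for presynaptic adhesion, had weak promoter peaks in SC (3.39) and SS (3.35) at different start sites. Its SC peak overlapped neither of its SS promoter peaks.

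**Figure D3:**
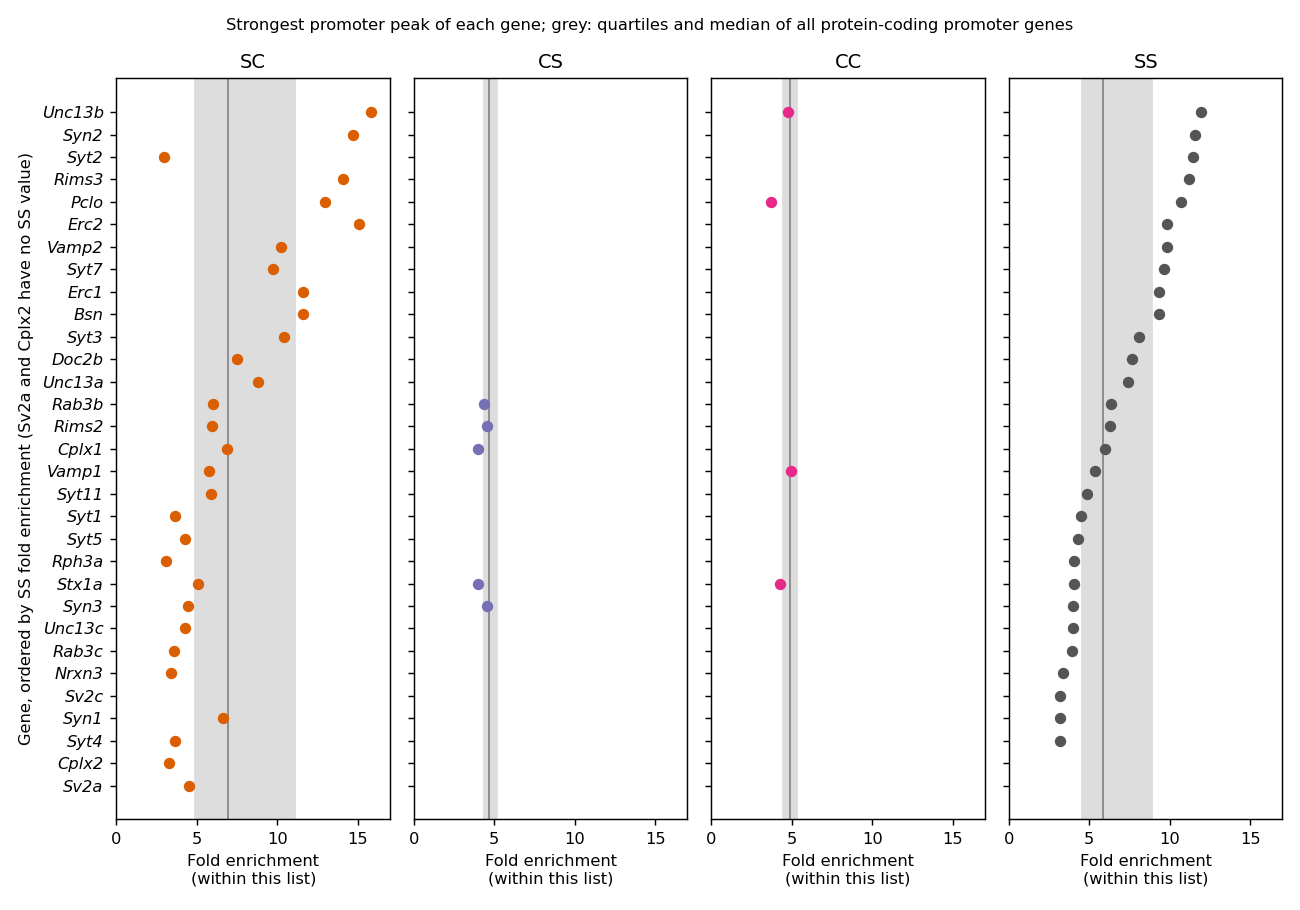
Fold enrichment of the strongest promoter peak of 31 genes in each list (x axis, authors' ratio over background; rows ordered by the SS value). Grey bands are the quartiles and lines the medians of all protein-coding promoter genes of that list, at 6.95 in SC, 4.68 in CS, 4.86 in CC and 5.83 in SS; genes spread from 2.97 to 15.8 in SC and from 3.15 to 11.9 in SS, and the Syt2 point in SC is that of its downstream start site.

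In SC and SS the presynaptic genes spread from weak to strong promoters, while in CS and CC the folds of their few peaks spanned little. They ran from 4.02 to 4.52 in CS and from 3.71 to 4.96 in CC. Most promoter genes of these 2 lists also had low folds. The quartiles over all protein-coding promoter genes were 4.35 and 5.15 in CS and 4.44 and 5.34 in CC. The highest values, among far more genes, were 14.9 in CS and 12.6 in CC. The median fold was 5.99 in SC, 4.35 in CS, 4.52 in CC and 6.3 in SS, beside 6.95 in SC, 4.68 in CS, 4.86 in CC and 5.83 in SS over all protein-coding promoter genes. Sorted into 5 equal groups by SS fold, 9 of the 29 SS genes fell in the weakest (below 4.27) and 8 in the strongest (above 9.47). The 8 strongest were Erc2, Pclo, Rims3, Syn2, Syt2, Syt7, Unc13b and Vamp2. None of these had a promoter peak in CS, where 31.3% of all genes of that strength did, and 2 had one in CC, against 25.2%. In the middle group 3 of 4 genes (Cplx1, Rab3b and Rims2) had a CS peak, against 44.7% of all genes there. In the weakest group 2 of 9 (Stx1a and Syn3) had one, against 12.4%. In the group above the weakest 0 of 3 had a CS peak, against 36%, and below the strongest 0 of 5, against 26%. A CC peak was found at 1 of 4 in the middle group, against 34.4%, and 1 of 9 in the weakest, against 9.44%. The other 2 groups had 0 in CC, against 29.1% and 21.2%. With so few genes per group, no pattern by strength can be read.

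The promoter peaks in CS and CC were short and had higher q-values than those in SC and SS. All 6 peaks in CS and all 4 in CC lay wholly inside an SS peak of the same gene and covered 3.32 to 14.3% of its width. Over all protein-coding genes, 97.7% of CS and 97.5% of CC promoter peaks overlapped an SS promoter peak of any gene by at least 1 bp. That is a looser measure than lying wholly inside a peak of the same gene. The q-values of the member peaks ran from 0.000992 to 0.0154 in CS and from 0.000463 to 0.0314 in CC. None reached a −log10 q of 5, which 14.2% of all CS and 15.1% of all CC promoter genes did, while all 30 SC and all 29 SS genes reached it, as did 99.7% of all promoter genes in either list. In CS the values came in steps shared by many peaks: Cplx1 and Stx1a had the same fold and q as 339 peaks of the list in all (these included), and both Rab3b peaks the same as 532. By identical pairs of fold and q, 89.3% of CS, 87.3% of CC, 43.6% of SC and 59.3% of SS peaks shared theirs with another peak.

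**Figure D4:**
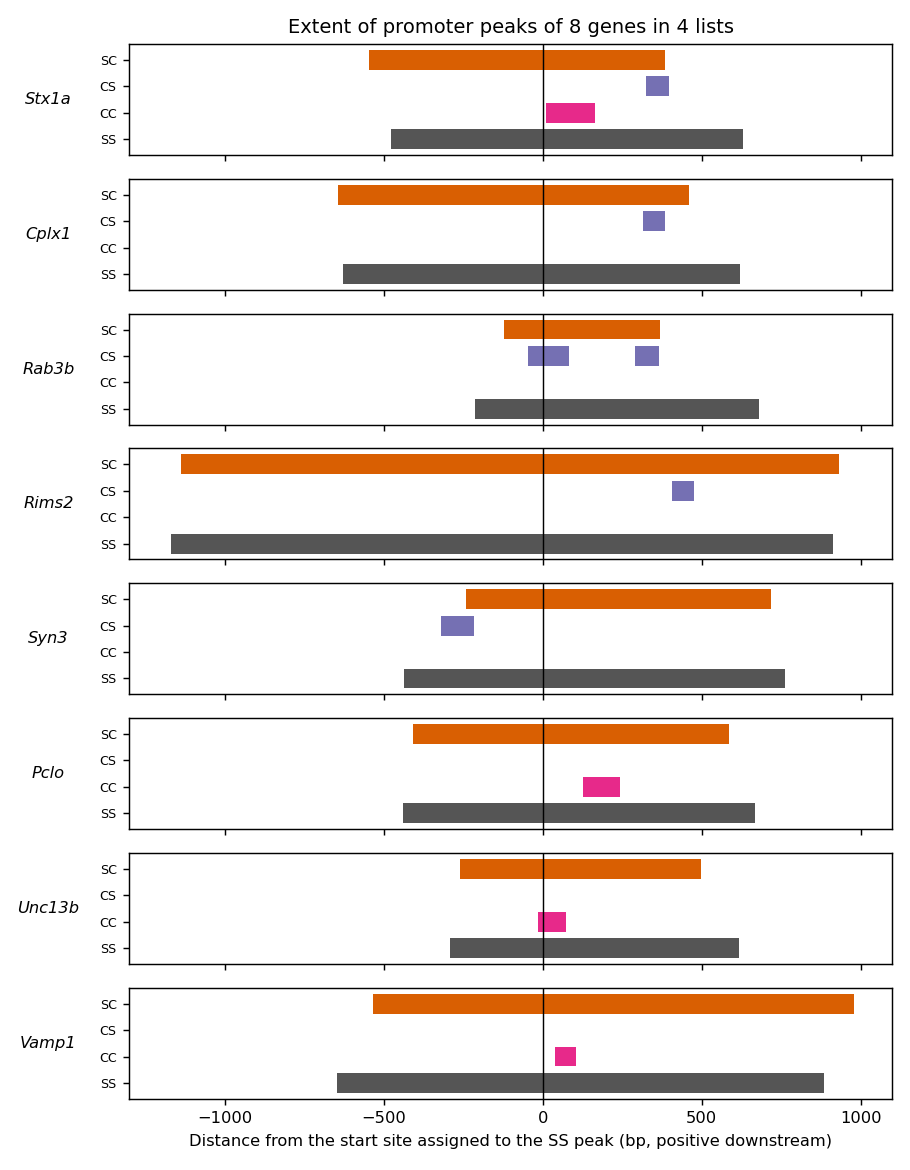
Extent of the promoter peaks of the 8 genes with a CS or CC promoter peak, by list (rows within a panel), against the distance in bp from the start site assigned to the SS peak, positive downstream. The CS and CC bars are 67 to 157 bp long and lie inside SS bars of 894 to 2081 bp.

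The place of these short peaks differed between genes. The strongest CS peak had its middle 350 bp downstream of the start site at Cplx1, 361 bp at Stx1a and 411 bp at Rims2, 18 bp at Rab3b (the first of its 2 peaks of equal fold), and at −227 bp, upstream of the start site, at Syn3. Thus 3 of 5 genes had it at least 300 bp downstream, where 12.1% of all CS promoter genes did. In CC the middles lay 28 bp downstream at Unc13b, 72 bp at Vamp1, 87 bp at Stx1a and 185 bp at Pclo. Within 100 bp of the start site were thus 3 of 4, where 20.7% of all CC promoter genes were. In SC 14 of 30 genes (46.7%, against 51.2% of all) and in SS 14 of 29 (48.3%, against 51.4%) had their middle within 100 bp. With so few genes in CS and CC, no order between these lists can be read from the shares.

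Sequence features of the promoters were read from RefSeq windows of 300 bases, from 250 before to 50 after a start site. The table held 39 windows for 28 of the 37 genes. Any peak, whatever its name, overlapped a window of 20 of the 28 genes in SC (71.4%, against 53.4% of all protein-coding genes with a window), 0 in CS (0%, up to 12.3%, against 7.24%), 1 in CC (3.57%, against 5.07%) and 22 in SS (78.6%, against 56.2%). The intervals were 51.3 to 86.8% in SC, 0.0904 to 18.3% in CC and 59 to 91.7% in SS. That of SS lay above the share of all genes, and those of SC, CS and CC took it in. The CC case was Syn2, where a peak assigned to Gm17733 (4.28, 82 bp, q = 0.00589) reached into the window. The CS peaks of Cplx1, Rab3b and Stx1a lay outside their windows, and Rims2 and Syn3 had no window in the table.

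CpG counts in the windows ran from 0 to 46. The median was 18 in the 24 windows with an SS peak and 7 in the 15 without one, beside 23 and 3 over all protein-coding windows. The windows richest in CpG were those of Erc1 (46), Bsn (38) and Pclo (35), all with peaks in SC and SS. Rims1, with 26 CpGs, and Rab3a, with 22 and 18 in its 2 windows, had no peak, while Unc13c, with 6, had one in SC and SS. Searched on both strands, with overlaps between motifs allowed, GGGCGG stood in 79.2% of member windows with an SS peak and 40% of those without (70.1% and 18.5% over all genes). CACGTG stood in 4.17% and 6.67% (10.3% and 4.92%), TATAAA in 12.5% and 0% (5.64% and 20.7%) and TGACGT in 4.17% and 13.3% (11.5% and 5.05%). These last member shares rest on few windows. With and without an SS peak they are 1 and 1, 3 and 0, and 1 and 2 windows, in that order. The 3 windows belong to Sv2b and Rab3b. No preference of the presynaptic genes can be read from these counts.

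**Figure D5:**
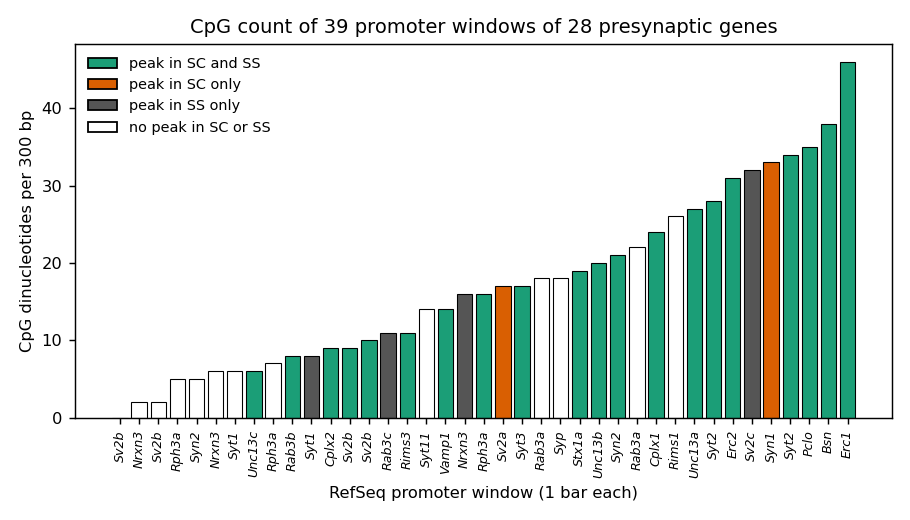
Number of CpG dinucleotides in each of 39 RefSeq promoter windows of 300 bp from 28 presynaptic genes (y axis), sorted by that number and coloured by overlap with a peak of any name in SC and SS. Windows with no peak gather at the low end, with Rims1 (26), Rab3a (22 and 18) and Syp (18) among the exceptions.

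Some presynaptic genes also had peaks away from their start sites. Beyond 1000 bp of a start site there were 20 peaks of 12 members in SC (32.4%, 18 to 49.8%, against 10.6% of all protein-coding genes), 1 of 1 member in CS (2.7%, 0.0684 to 14.2%, against 1.31%), 1 of 1 member in CC (2.7%, 0.0684 to 14.2%, against 0.936%) and 15 peaks of 8 members in SS (21.6%, 9.83 to 38.2%, against 10%). All but the CS peak, that of Erc2 described above, lay in a gene body. The lists held 3259 gene body peaks in SC, 328 in CS, 218 in CC and 2889 in SS. The shares were not matched for gene length, and the part of gene length in them was not tested. Rims2 had a peak 461.5 kb into the gene in SC (4.56) and SS (4.52), and Unc13a had one 42.4 kb in for SC (4.5) and 42.3 kb in for SS (4.95). Other strong ones in SC were those of Syt7 (4.46, at 33.4 kb) and Syn3 (4.23, at 195.8 kb). In SS they were a further peak of Rims2 (4.35, at 18.9 kb) and one of Rab3c (3.87, at 152.4 kb). The CC peak lay in Nrxn3, chr12:88813579-88813646. It was 67 bp wide with a fold of 7.25 and a q of 1.29e-09, so it reached the −log10 q of 5 that no promoter peak of the set did in CC.

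Other genes of the release pathway also had most of their promoter peaks in SC and SS. Of 63 further presynaptic genes, among them SNARE partners, liprins, vesicle transporters and endocytic proteins, 48 had a promoter peak in SC (76.2%), 10 in CS (15.9%), 9 in CC (14.3%) and 49 in SS (77.8%), beside 50.9% in SC, 17.2% in CS, 13.5% in CC and 53.4% in SS over all protein-coding genes. Of those 49, 47 also had one in SC (95.9%, against 90.1% of all SS promoter genes), 9 in CS (18.4%, against 30.1%) and 9 in CC (18.4%, against 23.9%). The strongest in SS were Ppfia1 (11.9), Syt16 (11.7), Itsn1 (11.5), Vti1a (11.1) and Dnajc5 (10.8), none with a CS or CC peak. In both CS and CC stood Syngr1, for the vesicle protein synaptogyrin (4.26 in CS, 5.41 in CC), and the Rab3 family gene Rab3d (4.02 in CS, 4.32 in CC). In CS alone of those 2 lists were Dnm1 (dynamin), Rab27b, Scamp5, Snap23, Snap29, Snap91, Syt9 and Syt14. Those in CC alone included Apba1, Rab3gap2, Sh3gl2 (endophilin), Stx3, Synj1 (synaptojanin) and Syt12. Synaptotagmin genes outside the 37 therefore had peaks in CS (Syt9 at 5.04 and Syt14 at 5.95) and in CC (Syt12 at 4.35), where none of the 7 inside it did.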

How the data were processed

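The 12 samples of mouse nucleus accumbens (3 per condition) were represented by 4 peak lists, 1 per condition. Per the submitters' processing notes, reads were handled with MACS2, HISAT, cutadapt and SAMtools on mm10. The sources used here do not state versions, thresholds, the control library or pooling. The deposited columns, per the file headers, are a fold enrichment (ratio over background), a q-value on a linear scale, an assigned gene and a signed distance for each peak. That distance ran from the start site to the peak middle along the direction of transcription (negative upstream), within 1 bp, for every annotated peak. Depth per sample was not analysed here, so its precision is unknown. All columns used belong to samples of the series.

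Peaks within 1000 bp of a start site counted as promoter peaks, and each gene was represented by its strongest. Lists were joined by gene name, and peaks by overlap of at least 1 bp, with Python 3.11.15, pandas 2.3.3 and scipy 1.17.1. Overlap calls were tested on simulated data. RefSeq windows (GRCm38.p6) started within 100 bp of a listed start site of the same gene in 67.7% of 14898 cases. Every member was to be named, with the other presynaptic genes named where they had a CS or CC peak or were among the 5 strongest in SS; a gene that this rule would name is not reported here. Members and lists were chosen with earlier results of these data known. Positions are printed as in the lists, whose counting base (0 or 1) the sources used here do not give.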

Additional observations from a re-analysis of the deposited data

How the results depend on the processing

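Of 62 alternative values for 16 results (counts of members by list, and the median width and offset of their promoter peaks), 48 stayed within 1.5 times (for offsets, 50 bp) of the reported one, and 14 moved further. Promoter limits of 500 and 2000 bp and counting an overlapping peak of any name moved none of the counts further. With peaks of −log10 q of at least 5, members with a promoter peak were 0 in CS and 0 in CC, so that those also found in SS were 0 in each and those in all 4 lists 0; no median width or offset could be had there for CS and CC. With lists of equal length, made of the 4827 peaks of highest fold, members with a promoter peak were 10 in SC, 3 in CS and 12 in SS. Of those 12, 10 were also found in SC, 0 in CS and 2 in CC, and 0 members were in all 4 lists; fewer peaks entered that comparison. Counting any peak on a RefSeq promoter window, an alternative chosen after seeing the data and open to 28 members, gave 0 members in CS and 1 in CC. No paired analysis was possible because each condition has 1 list and no value per sample, and for the same reason no sample could be left out in turn.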
